A study of Mus musculus with 4 samples.

Results

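Tropomyosins and alpha-actinins are actin filament proteins whose genes carry pairs of exons used one in place of the other. The genes described here are Tpm1, Tpm2, Tpm3, Tpm4, Actn1 and Actn4, taken by their symbols or RefSeq identifiers among 20312 gene symbols with a level in every library. Their exons were taken from a fixed list of exon trios (an exon and its neighbour on each side), on which the 6 genes held 95 of 228333 trios and 5 of the 486 exon pairs that share both neighbours. The samples were N2A cells, a mouse neuroblastoma line, given an shRNA against Ptbp1 (Ptbp1 knockdown), an shRNA against Ptbp2 (Ptbp2 knockdown), both shRNAs (double knockdown) or a control shRNA (control). Each shRNA was delivered with Lipofectamine for 5 hours and the cells were then cultured for 3 days, so all groups are transient transfections. Poly(A) RNA was sequenced strand-specifically as 100-base paired reads, with 1 library in each group. There was therefore no spread between replicates and no test across samples. All 3 comparisons used the same control library, and all intervals below are 95% and cover counting error only.

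Tropomyosin is a coiled coil that lies along the actin filament and sets which other proteins can bind there, and alpha-actinin joins filaments side by side through a rod with an actin-binding end and a calcium-binding EF-hand end. Alternative first, sixth and last exons give muscle, brain and cytoskeletal forms of tropomyosin, and a pair of exons in the EF-hand region gives the nonmuscle and smooth muscle forms of alpha-actinin. Ptbp1 and its neuronal relative Ptbp2 encode polypyrimidine tract-binding proteins, which bind pyrimidine-rich RNA and are textbook repressors of muscle exons in these genes.

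Ptbp1 stood at 55.4 FPKM in Ptbp1-knockdown cells, 177 FPKM in Ptbp2-knockdown cells, 36.8 FPKM in double-knockdown cells and 149 FPKM in control cells. Ptbp2 stood at 76 FPKM in Ptbp1-knockdown cells, 10.8 FPKM in Ptbp2-knockdown cells, 20.6 FPKM in double-knockdown cells and 35.2 FPKM in control cells. The labels thus held in direction for Ptbp1 and Ptbp2, with Ptbp2 above control where only Ptbp1 was targeted. In double-knockdown cells Ptbp2 was less reduced than in Ptbp2-knockdown cells. Its log2 difference from control there was −0.75 by FPKM, short of the threshold of 1 used below, and −1.18 by reads on the exon list. Reads over the junctions of the exon list, where a junction counts once in each trio that holds it, came to between 121 M and 155 M a library. Of the markers of neuroblastoma and neurons, Tubb3, the neuronal beta-tubulin, stood at 187, 226 and 177 FPKM in Ptbp1-, Ptbp2- and double-knockdown cells and 222 FPKM in control cells, while Nefl and Nefm, which encode neurofilament chains, were under 0.1 FPKM in every library. Among 7 smooth muscle markers Tagln, Myh11, Cnn1 and Lmod1 were under 0.1 FPKM in every library, and the list summed to 8.68, 7.52 and 6.62 FPKM in Ptbp1-, Ptbp2- and double-knockdown cells and 5.41 FPKM in control cells. Most of that sum was Smtn, at 7.78, 6.33 and 5.47 FPKM in Ptbp1-, Ptbp2- and double-knockdown cells and 4.95 FPKM in control cells. Skeletal and heart muscle markers summed to 1.24 FPKM or less, fibroblast markers to 1.44 FPKM or less and glia markers to 2.78 FPKM or less in each library, with Myod1, Myog, Ckm and Ttn under 0.1 FPKM throughout.

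The exons on which the results turn are shown first, as read 5′ to 3′ from the GENCODE transcripts of build GRCm38 and with the mm9 positions of the files. Capitals mark bases that differ within a pair, or that have no partner where the lengths differ. The sixth exons of Tpm1 and Tpm3 are given because they are the pairs on the list whose shares passed the threshold used below. In Tpm1, exons 6a (chr9:66880273-66880348, minus strand) and 6b (chr9:66879758-66879833) hold 76 bases each, of which 43 are identical.
Tpm1 exon 6a: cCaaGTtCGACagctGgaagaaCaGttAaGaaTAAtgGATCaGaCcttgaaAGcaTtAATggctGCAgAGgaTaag
Tpm1 exon 6b: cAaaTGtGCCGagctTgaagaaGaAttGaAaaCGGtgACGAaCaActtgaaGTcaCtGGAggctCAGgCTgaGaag
In Tpm3, exons 6a (chr3:89892323-89892398, plus strand) and 6b (chr3:89892970-89893045) share 39 of 76 bases.
Tpm3 exon 6a: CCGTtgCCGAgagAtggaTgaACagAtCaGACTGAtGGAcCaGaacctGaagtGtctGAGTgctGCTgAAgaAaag
Tpm3 exon 6b: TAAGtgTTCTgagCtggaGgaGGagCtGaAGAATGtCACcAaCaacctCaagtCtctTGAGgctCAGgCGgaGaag
In Actn1 the nonmuscle exon (chr12:81271673-81271753, minus strand) holds 81 bases and the smooth muscle exon (chr12:81271170-81271235) holds 66 bases, with 43 identical bases in a global alignment.
Actn1 81-nt exon: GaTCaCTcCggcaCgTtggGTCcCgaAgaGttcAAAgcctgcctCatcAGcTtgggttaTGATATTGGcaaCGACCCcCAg
Actn1 66-nt exon: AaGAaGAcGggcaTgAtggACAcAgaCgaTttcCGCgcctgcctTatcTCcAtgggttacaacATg
Actn4 has a pair of the same lengths at the matching place, the 81-nt exon (chr7:29680451-29680531, minus strand) and the 66-nt exon (chr7:29680140-29680205), with 44 identical bases.
Actn4 81-nt exon: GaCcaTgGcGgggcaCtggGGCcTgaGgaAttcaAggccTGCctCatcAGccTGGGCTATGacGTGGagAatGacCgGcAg
Actn4 66-nt exon: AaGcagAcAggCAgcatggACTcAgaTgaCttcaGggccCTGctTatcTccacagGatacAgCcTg
A further Actn4 pair lies closer to the start of the gene, with 86 bases in each exon (chr7:29696509-29696594 and chr7:29694922-29695007) and 65 of them identical.
Actn4 first 86-nt exon: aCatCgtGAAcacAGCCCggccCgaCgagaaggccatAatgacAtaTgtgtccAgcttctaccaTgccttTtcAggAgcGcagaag
Actn4 second 86-nt exon: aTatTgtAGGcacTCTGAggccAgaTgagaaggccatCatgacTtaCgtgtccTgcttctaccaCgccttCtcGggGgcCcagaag

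The Tpm1 choice between exons 6a and 6b went in opposite directions in the single-knockdown cells. The share of a pair held by an exon is the mean of its upstream and downstream junction reads over the sum of both exons' means. Exon 6a had 57 upstream and 71 downstream junction reads in Ptbp1-knockdown cells, 559 and 725 in Ptbp2-knockdown cells, 92 and 68 in double-knockdown cells, and 286 and 355 in control cells. Exon 6b had 488 and 851 such reads in Ptbp1-knockdown cells, 177 and 320 in Ptbp2-knockdown cells, 738 and 1234 in double-knockdown cells, and 452 and 724 in control cells. Exon 6a therefore made up 8.73% of the pair (6.89 to 11.0) in Ptbp1-knockdown cells, 72.1% (69.1 to 75) in Ptbp2-knockdown cells, 7.5% (6.07 to 9.24) in double-knockdown cells and 35.3% (32.2 to 38.4) in control cells. The intervals of Ptbp1- and double-knockdown cells overlapped each other, and those of Ptbp2-knockdown cells and control overlapped no other. Against control the share differed by −26.6 percentage points in Ptbp1-knockdown cells (−30.2 to −22.7), by 36.8 in Ptbp2-knockdown cells (32.5 to 41.1) and by −27.8 in double-knockdown cells (−31.2 to −24.2). Double-knockdown cells thus stood with Ptbp1-knockdown cells, below control. In RNA of whole cultures, a different exon choice in every cell and a mixture of cells with fixed choices cannot be told apart, nor can fewer cells of a type and less RNA per cell.

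Some Tpm1 transcripts held neither exon. Reads that joined exon 5 directly to exon 7 numbered 6 in Ptbp1-knockdown cells, 41 in Ptbp2-knockdown cells, 2 in double-knockdown cells and 11 in control cells. They were 0.81% of the reads of the site (0.37 to 1.76) in Ptbp1-knockdown cells, 4.4% (3.26 to 5.91) in Ptbp2-knockdown cells, 0.19% (0.05 to 0.68) in double-knockdown cells and 1.2% (0.67 to 2.13) in control cells. The Ptbp2 knockdown was the 1 library whose interval lay above that of control. Cufflinks assembled such a transcript in Ptbp2-knockdown cells alone, at 5.11 FPKM.

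In Tpm3 the minor exon 6b was higher in Ptbp1- and double-knockdown cells and lower in Ptbp2-knockdown cells, as exon 6b of Tpm1 was. Slow skeletal muscle Tpm3 holds exon 6b, but the share of 6b alone does not tell muscle from cytoskeletal products. Exon 6b had 130 upstream and 126 downstream junction reads in Ptbp1-knockdown cells, 21 and 37 in Ptbp2-knockdown cells, 292 and 252 in double-knockdown cells, and 98 and 74 in control cells. Exon 6a had 746 and 427 in Ptbp1-knockdown cells, 2817 and 1546 in Ptbp2-knockdown cells, 887 and 458 in double-knockdown cells, and 2131 and 1244 in control cells. The share of 6b was 17.9% (15.3 to 20.9) in Ptbp1-knockdown cells, 1.31% (0.88 to 1.83) in Ptbp2-knockdown cells, 28.8% (26.0 to 31.8) in double-knockdown cells and 4.85% (3.94 to 5.95) in control cells. No intervals overlapped, and the order from low to high was Ptbp2 knockdown, control, Ptbp1 knockdown, double knockdown. The downstream junction of 6b was also counted in the trio of the 63-nt exon that follows. There it had 382, 456 and 655 reads in Ptbp1-, Ptbp2- and double-knockdown cells and 522 in control cells. That of 6a had 970, 3358 and 1079 there, and 2733 in control cells. By these counts 6b held more of the pair in every library, in the same order, so its share is less firm than its interval. The share of 6b differed from control by 13.1 percentage points in Ptbp1-knockdown cells (10.2 to 16.2), by −3.54 in Ptbp2-knockdown cells (−4.75 to −2.52) and by 23.9 in double-knockdown cells (21.0 to 27.1). Cufflinks' assembled transcripts gave the other sign for Tpm3, with the share of 6a above control by 23.2 percentage points in Ptbp1-knockdown cells and by 71.4 in double-knockdown cells. The annotation lists 2 further copies of Tpm3 (Tpm3-rs2 and Tpm3-rs7), and reads shared with such copies could be placed on either, so its counts are less certain than those of the other genes.

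**Figure D1:**
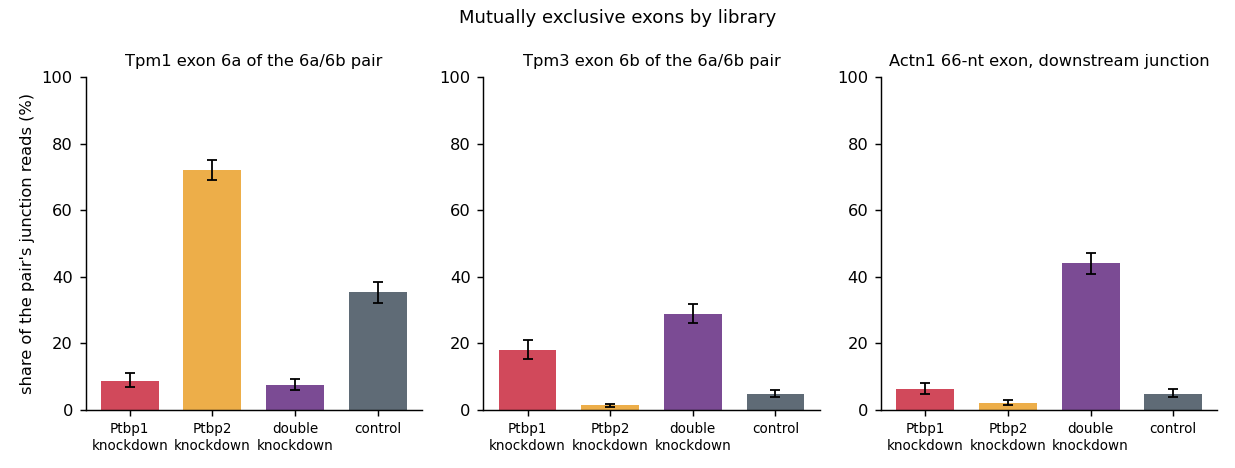
Share of a pair's junction reads (%, y axis) in each of the 4 libraries (x axis), with 95% Wilson intervals as bars. Tpm1 exon 6a stood at 72.1% in Ptbp2-knockdown cells and under 10% in Ptbp1- and double-knockdown cells, Tpm3 exon 6b was highest at 28.8% in double-knockdown cells, and the downstream junction of the Actn1 66-nt exon held 44.0% in double-knockdown cells and under 10% elsewhere.

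The sixth exons of Tpm2 and the second exons of Tpm1 were nearly fixed in all libraries. In Tpm2, exon 6b of the skeletal muscle form (chr4:43531516-43531591, minus strand) held 99.2% of the pair in Ptbp1-knockdown cells, 97.5% in Ptbp2-knockdown cells, 100% in double-knockdown cells and 97.9% in control cells, over 66 to 106 reads. In Tpm1, exon 2b (chr9:66895593-66895718) held 98.3% in Ptbp1-knockdown cells, 97.4% in Ptbp2-knockdown cells, 98.5% in double-knockdown cells and 97.4% in control cells against exon 2a, its smooth muscle alternative. Neither pair differed from control by more than 2.08 percentage points. With the rule of at least 20 percentage points and 20 junction reads in both libraries, 1 of the 5 pairs was called in Ptbp1-knockdown cells (Tpm1), 1 in Ptbp2-knockdown cells (Tpm1) and 2 in double-knockdown cells (Tpm1 and Tpm3). Over all pairs tested, 8.3% were called in Ptbp1-knockdown cells, 3.28% in Ptbp2-knockdown cells and 13.3% in double-knockdown cells, and 5 pairs are too few to read more than their own values from. Nearest to the threshold were Tpm3, past it at 23.9 points in double-knockdown cells, and Actn1, short of it at 19.1 points.

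In Actn1 the 66-nt smooth muscle exon, paired with the 81-nt nonmuscle exon, held a larger share of the pair's downstream junction reads in double-knockdown cells. The downstream junction of the 66-nt exon had 52 reads in Ptbp1-knockdown cells, 34 in Ptbp2-knockdown cells, 430 in double-knockdown cells and 63 in control cells. The downstream junction of the 81-nt exon had 791 reads in Ptbp1-knockdown cells, 1595 in Ptbp2-knockdown cells, 548 in double-knockdown cells and 1232 in control cells. On this side the 66-nt exon held 6.17% (4.73 to 8.0) in Ptbp1-knockdown cells, 2.09% (1.5 to 2.9) in Ptbp2-knockdown cells, 44.0% (40.9 to 47.1) in double-knockdown cells and 4.86% (3.82 to 6.18) in control cells. Double-knockdown cells stood apart from the other libraries, whose shares were all under 8% by these counts. In the trios of the 159-nt exon that follows, the 66-nt exon's junction had 87, 107 and 452 reads in Ptbp1-, Ptbp2- and double-knockdown cells and 121 in control cells. The 81-nt exon's junction had 656, 1360 and 470 there, and 1074 in control cells. Those counts give the 66-nt exon a larger share in every library, again highest in double-knockdown cells. The upstream side differed in the same direction but by 1.65 percentage points. The 81-nt exon's upstream junction had 921 reads in Ptbp1-knockdown cells, 1781 in Ptbp2-knockdown cells, 1095 in double-knockdown cells and 1417 in control cells. There the 66-nt exon had 6 upstream junction reads in Ptbp1-knockdown cells, 2 in Ptbp2-knockdown cells, 20 in double-knockdown cells and 2 in control cells, which is 1.79% of the pair (1.16 to 2.75) in double-knockdown cells and 0.14% (0.04 to 0.51) in control cells. The same upstream junction, counted in the trio of the 147-nt exon before it, had 67, 137 and 89 reads in Ptbp1-, Ptbp2- and double-knockdown cells and 106 in control cells. These counts disagree, so the upstream side is not a firm measure of this exon. The 147-nt to 81-nt junction had 985, 1909 and 1178 reads in Ptbp1-, Ptbp2- and double-knockdown cells and 1523 in control cells. By the 147-nt exon's counts, double-knockdown cells thus had fewer reads than control to either exon of the pair, with little difference in the share. The upstream junction of the 147-nt exon was lower too, at 1430 reads against 1742 in control cells. Actn1 as a whole stood at 73.3% of control by exon reads in double-knockdown cells.

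With both sides averaged, the 66-nt exon held 3.28% (2.29 to 4.67) in Ptbp1-knockdown cells, 1.06% (0.67 to 1.66) in Ptbp2-knockdown cells, 21.5% (19.0 to 24.0) in double-knockdown cells and 2.39% (1.74 to 3.4) in control cells. The inclusion ratio that SpliceTrap gives for the 66-nt exon was 14.9%, 5.8% and 86.7% in Ptbp1-, Ptbp2- and double-knockdown cells and 11.0% in control cells. It too was highest in double-knockdown cells. A junction from the 81-nt to the 66-nt exon is not among the trios used. Whether the downstream reads of the 66-nt exon came from transcripts that held both exons was therefore not tested. In control, Cufflinks assembled 1 transcript of 12.6 FPKM that held the 81-nt exon and then ended in an 85-nt exon (chr12:81271151-81271235) over the 66-nt one. No assembled Actn1 transcript held the 66-nt exon without the 81-nt exon in any library.

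In Actn4 the 66-nt exon is not among the trios, so no share of its pair could be read from junctions. In Cufflinks' assemblies, transcripts with the 81-nt exon stood at 24.3 FPKM in Ptbp1-knockdown cells, 57.2 FPKM in Ptbp2-knockdown cells, 24.7 FPKM in double-knockdown cells and 53.7 FPKM in control cells. A transcript with the 66-nt exon in its place stood at 7.66 FPKM in Ptbp1-knockdown cells and 21.0 FPKM in double-knockdown cells, and none was assembled in Ptbp2-knockdown cells or in control cells. It made up 23.9% of the pair in Ptbp1-knockdown cells and 46.0% in double-knockdown cells. In double-knockdown cells the same transcript held the second 86-nt exon in place of the first. The transcript of Ptbp1-knockdown cells kept the first 86-nt exon.

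Junction reads of the trios next to these exons were read on both sides of the middle exon. For the 147-nt exon, whose downstream neighbour is the 81-nt exon, downstream and upstream junctions had 538 and 678 reads in Ptbp1-knockdown cells, 1145 and 1181 in Ptbp2-knockdown cells, 396 and 1049 in double-knockdown cells, and 1189 and 1222 in control cells. For the 93-nt exon, whose upstream neighbour is the first 86-nt exon, upstream and downstream junctions had 482 and 567 reads in Ptbp1-knockdown cells, 1106 and 1147 in Ptbp2-knockdown cells, 280 and 721 in double-knockdown cells, and 1059 and 1132 in control cells. In double-knockdown cells the side that faced the alternative exon held 37.8% and 38.8% as many reads as the other side, against 97.3% and 93.6% in control cells. Across the 4 trios next to a pair, the log2 ratio of downstream to upstream reads differed from control by 1.03 to 1.43 in size in double-knockdown cells, by 0.10 to 0.29 in Ptbp1-knockdown cells and by 0.01 to 0.22 in Ptbp2-knockdown cells. The other 13 Actn4 trios that did not hold a pair exon lay between −0.25 and 0.39 in double-knockdown cells. In double-knockdown cells, junctions to the 81-nt and first 86-nt exons were thus lower from either neighbour. In Ptbp1-knockdown cells the other 13 trios lay between −0.18 and 0.29.

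**Figure D2:**
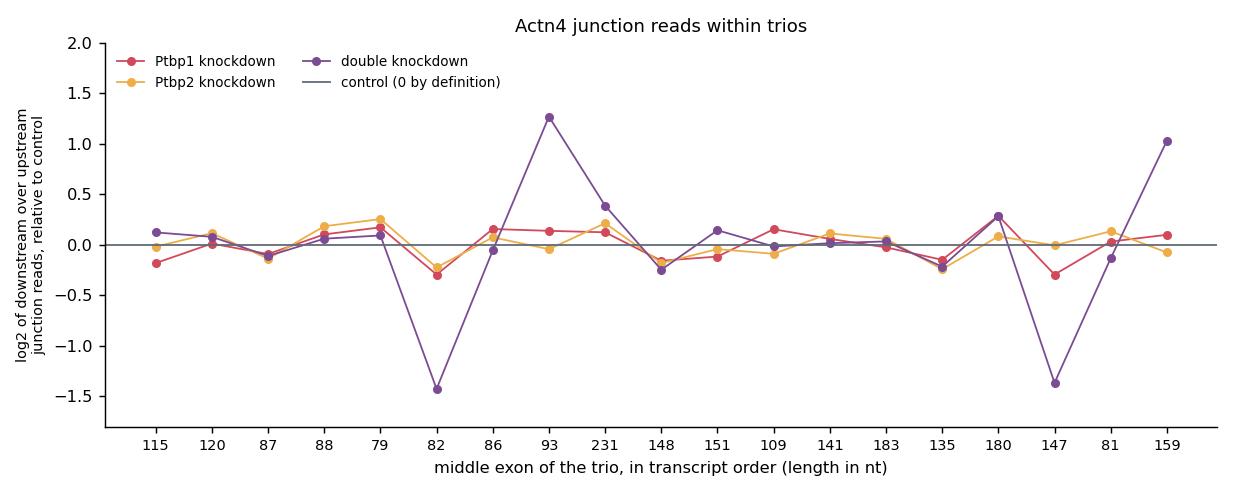
Log2 ratio of downstream to upstream junction reads of each Actn4 trio, relative to control (y axis), with middle exons in transcript order and labelled by length in nt (x axis). The line of double-knockdown cells dips at the 82-nt and 147-nt exons and peaks at the 93-nt and 159-nt exons, which flank the first 86-nt and the 81-nt exon, by 1.03 to 1.43, and its other 13 trios without a pair exon stay between −0.25 and 0.39.

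The last exons of the tropomyosins also differed from control in Ptbp1- and double-knockdown cells. Exon 8 of Tpm1 (70 nt) can join 9a, which is used in striated muscle together with 9b, 9c, the brain form, or 9d, the smooth muscle and cytoskeletal form. Reads from exon 8 to 9d numbered 527 in Ptbp1-knockdown cells, 1445 in Ptbp2-knockdown cells, 406 in double-knockdown cells and 1330 in control cells. Reads to 9c numbered 372 in Ptbp1-knockdown cells, 151 in Ptbp2-knockdown cells, 400 in double-knockdown cells and 149 in control cells. Reads to 9a numbered 252 in Ptbp1-knockdown cells, 173 in Ptbp2-knockdown cells, 780 in double-knockdown cells and 141 in control cells. Exon 9d thus held 45.8% (42.9 to 48.7) in Ptbp1-knockdown cells, 81.7% (79.8 to 83.4) in Ptbp2-knockdown cells, 25.6% (23.5 to 27.8) in double-knockdown cells and 82.1% (80.2 to 83.9) in control cells. The intervals of Ptbp2-knockdown cells and control overlapped, and both other libraries lay below them.

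The exons that held the rest of the reads from exon 8 differed between Ptbp1- and double-knockdown cells. The share of 9c was 32.3% (29.7 to 35.1) in Ptbp1-knockdown cells, 8.54% (7.32 to 9.93) in Ptbp2-knockdown cells, 25.2% (23.1 to 27.4) in double-knockdown cells and 9.2% (7.89 to 10.7) in control cells. The share of 9a was 21.9% (19.6 to 24.4) in Ptbp1-knockdown cells, 9.78% (8.48 to 11.3) in Ptbp2-knockdown cells, 49.2% (46.7 to 51.6) in double-knockdown cells and 8.7% (7.43 to 10.2) in control cells. Of these, the brain exon held the larger share in Ptbp1-knockdown cells and the striated muscle exon in double-knockdown cells. The onward junction from 9a to 9b, which was counted separately, had 210 reads in Ptbp1-knockdown cells, 63 in Ptbp2-knockdown cells, 836 in double-knockdown cells and 24 in control cells. Reads that joined exon 8 to 9b without 9a numbered 78 in Ptbp1-knockdown cells, 10 in Ptbp2-knockdown cells, 138 in double-knockdown cells and 2 in control cells. In that trio the junction from exon 8 to 9a had 130 reads in Ptbp1-knockdown cells, 53 in Ptbp2-knockdown cells, 507 in double-knockdown cells and 29 in control cells, fewer than the 252, 173, 780 and 141 of the trio used for the shares. The same junction thus has different counts in different trios, and the share of 9a is less firm than its interval. With the lower counts too, 9a had fewer reads than 9c in Ptbp1-knockdown cells and more in double-knockdown cells. From the counts of its own trio, inclusion of 9a between exon 8 and 9b was 68.5% (62.5 to 74.0) in Ptbp1-knockdown cells, 85.3% (75 to 91.8) in Ptbp2-knockdown cells, 83.0% (80.2 to 85.4) in double-knockdown cells and 93.0% (77.4 to 98.0) in control cells, where 28 reads lay behind it.

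Tpm2, at the lowest level of the family here, had its own last-exon switch. Exon 8 joins either the near 3′ splice site of the last exon, which opens a 1292-nt exon (chr4:43527584-43528875), or the far one, which opens a 151-nt exon (chr4:43527583-43527733). Reads to the near site numbered 73 in Ptbp1-knockdown cells, 35 in Ptbp2-knockdown cells, 171 in double-knockdown cells and 31 in control cells. Reads to the far site numbered 38 in Ptbp1-knockdown cells, 91 in Ptbp2-knockdown cells, 19 in double-knockdown cells and 73 in control cells. The near site held 65.8% (56.5 to 73.9) in Ptbp1-knockdown cells, 27.8% (20.7 to 36.2) in Ptbp2-knockdown cells, 90.0% (84.9 to 93.5) in double-knockdown cells and 29.8% (21.9 to 39.2) in control cells. These sites had 104 to 190 reads a library, so the intervals are wide, yet those of Ptbp1- and double-knockdown cells overlapped neither each other nor control.

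In Tpm3, a 79-nt exon (chr3:89894935-89895013) lies between exon 8 and the last exon. Reads from exon 8 to the 79-nt exon numbered 251 in Ptbp1-knockdown cells, 323 in Ptbp2-knockdown cells, 486 in double-knockdown cells and 375 in control cells. Reads to the last exon numbered 776 in Ptbp1-knockdown cells, 2743 in Ptbp2-knockdown cells, 781 in double-knockdown cells and 2069 in control cells. The 79-nt exon held 24.4% (21.9 to 27.2) in Ptbp1-knockdown cells, 10.5% (9.5 to 11.7) in Ptbp2-knockdown cells, 38.4% (35.7 to 41.1) in double-knockdown cells and 15.3% (14.0 to 16.8) in control cells. The order of the libraries was the one seen for Tpm3 exon 6b, again with no overlap.

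**Figure D3:**
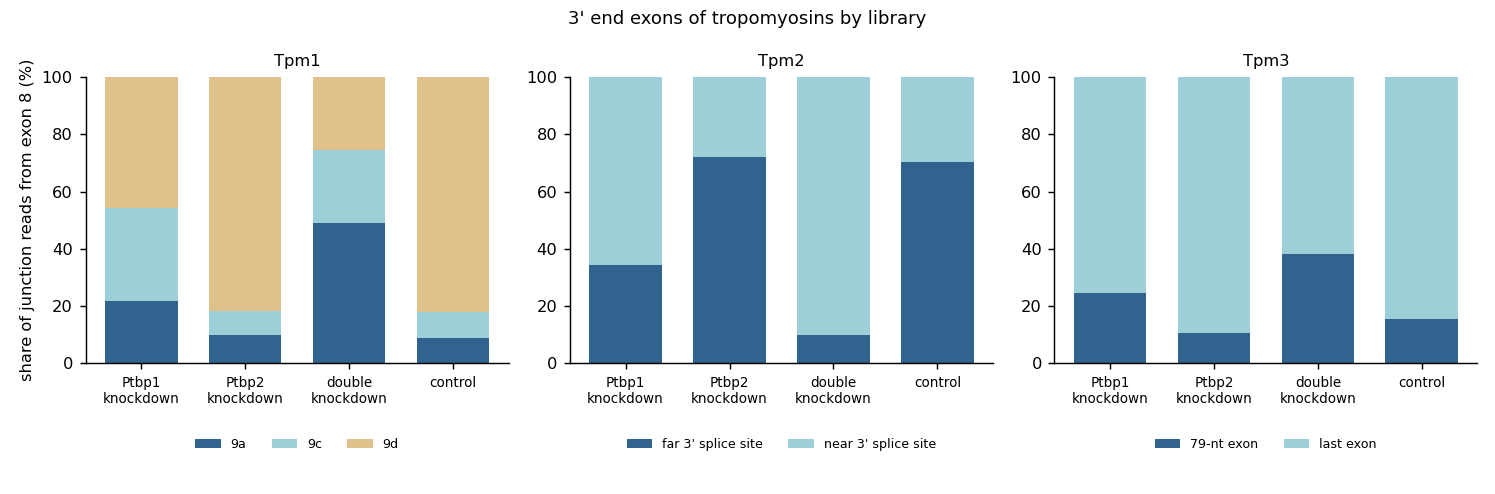
Shares of the junction reads from exon 8 (%, y axis) that went to each 3′ end exon of Tpm1, Tpm2 and Tpm3 in the 4 libraries (x axis). Tpm1 9d holds 45.8% in Ptbp1-knockdown cells and 25.6% in double-knockdown cells, against 82.1% in control cells, and the near splice site of Tpm2 reaches 90.0% in double-knockdown cells, against 29.8% in control cells.

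First exons varied less. The 134-nt exon 3 of Tpm1 was joined from exon 1b, the start of the short forms, by 452 reads in Ptbp1-knockdown cells, 487 in Ptbp2-knockdown cells, 497 in double-knockdown cells and 344 in control cells. From exon 2b, which belongs to the long forms, it was joined by 191 reads in Ptbp1-knockdown cells, 513 in Ptbp2-knockdown cells, 287 in double-knockdown cells and 343 in control cells. Exon 1b held 69.2% (65.6 to 72.6) in Ptbp1-knockdown cells, 47.7% (44.7 to 50.8) in Ptbp2-knockdown cells, 62.3% (58.9 to 65.6) in double-knockdown cells and 49.4% (45.7 to 53.1) in control cells. The differences of 19.9 points in Ptbp1-knockdown cells and 12.9 in double-knockdown cells were under the threshold. In Tpm3 the 199-nt short-form start held 96.5% to 97.2% of the junction reads from it and a 126-nt exon in all libraries. Reads that joined an exon further upstream directly to the 134-nt exon are outside that share. They numbered 87, 199 and 118 in Ptbp1-, Ptbp2- and double-knockdown cells and 171 in control cells. Cufflinks' assemblies differed here too, with the 199-nt short-form start at 62.3% in Ptbp2-knockdown cells and listed at 0 in the other libraries.

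Of 6 sets of alternative splice partners in these genes, 3 were called in Ptbp1-knockdown cells, 1 in Ptbp2-knockdown cells and 4 in double-knockdown cells, where 4.07%, 2.03% and 6.46% of all such sets were. The sets called in Ptbp1-knockdown cells were the Tpm1 and Tpm2 last exons and the Tpm1 6a/6b choice seen from exon 7. The 1 set called in Ptbp2-knockdown cells was that same 6a/6b choice, and in double-knockdown cells all 3 of these were called along with the Tpm3 79-nt exon. The 6a/6b set repeats the pair above.

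Outside these sites most exons of the 6 genes were near full inclusion. Of 88 cassette events (an exon either held or skipped between given neighbours), 86 had at least 20 junction reads in every library, and 80 of these were at 95% inclusion or more in every library. All 6 events of Tpm4, which has a single sixth exon and no pair on the list, were at 99.8% or more. One member event, Tpm1 9a, was called lower in Ptbp1-knockdown cells, where 0.348% of all events were called in either direction. None was called in Ptbp2-knockdown cells, where 0.175% of all events were. One, the Actn1 66-nt exon at 97.0% in double-knockdown cells and 71.4% in control cells, was called higher in double-knockdown cells, where 0.555% of all events were called. Its skipping reads numbered 7 in double-knockdown cells and 13 in control cells, where skipping means that neither exon of the pair was held. The same skipping junction, counted in the trio of the 81-nt exon, had 5 reads in double-knockdown cells and 1 in control cells. These counts differ in direction, so the call of the 66-nt exon is not firm.

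By gene level, Tpm3 was the 1 member that differed from control by 1 or more on the log2 scale. Levels are given as FPKM, scaled to an equal sum of FPKM times length in each library, and as reads per M reads (CPM) on the exon list. Tpm3 stood at 30.8 FPKM (29.4 to 32.2) in Ptbp1-knockdown cells, 83.8 (81.5 to 86.0) in Ptbp2-knockdown cells, 40.8 (39.7 to 41.9) in double-knockdown cells and 67.8 (65.8 to 69.9) in control cells. On the exon list it had 92.6 CPM in Ptbp1-knockdown cells, 269 CPM in Ptbp2-knockdown cells, 98.8 CPM in double-knockdown cells and 204 CPM in control cells. Tpm3 was thus lower where Ptbp1 was targeted, at 45.4% of control in Ptbp1-knockdown cells and 48.4% in double-knockdown cells by exon reads. On the log2(FPKM + 1) scale its difference from control was −1.11 in Ptbp1-knockdown cells, 0.30 in Ptbp2-knockdown cells and −0.72 in double-knockdown cells.

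Tpm4, a cytoskeletal tropomyosin, stood at 54.0 FPKM in Ptbp1-knockdown cells, 83.6 FPKM in Ptbp2-knockdown cells, 67.0 FPKM in double-knockdown cells and 87.2 FPKM in control cells. Actn4 stood at 32.0 FPKM in Ptbp1-knockdown cells, 57.2 FPKM in Ptbp2-knockdown cells, 45.8 FPKM in double-knockdown cells and 53.7 FPKM in control cells. Actn1 stood at 44.2 FPKM in Ptbp1-knockdown cells, 71.3 FPKM in Ptbp2-knockdown cells, 44.4 FPKM in double-knockdown cells and 59.9 FPKM in control cells. These 3 genes were lowest in Ptbp1-knockdown cells, with log2 differences of −0.43 to −0.73 that did not reach the threshold of 1. For Actn1 the double-knockdown cells were as low within the intervals, with a log2 difference of −0.43 as well. Tpm1 stood at 43.4 FPKM in Ptbp1-knockdown cells, 63.5 FPKM in Ptbp2-knockdown cells, 49.6 FPKM in double-knockdown cells and 53.7 FPKM in control cells. Its Cufflinks interval began at 0 in Ptbp1-knockdown cells, and it was not tested there because its Cufflinks status was not OK. Tpm2 stood at 3.44 FPKM in Ptbp1-knockdown cells, 4.97 FPKM in Ptbp2-knockdown cells, 4.74 FPKM in double-knockdown cells and 3.83 FPKM in control cells. Tpm1 and Tpm2 stayed within 0.36 of control on the log2 scale by either measure.

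A gene was tested when its Cufflinks status was OK in both libraries compared and it reached 3 FPKM in at least 1 of them. It was called when it also differed by at least 1 on that scale and had intervals that did not overlap. Of the members, Tpm3 was called lower in Ptbp1-knockdown cells, where 0.875% of all genes tested were called lower. The share called higher there was 1.54%. None was called in Ptbp2-knockdown cells, where 0.897% of genes were called higher and 1.81% lower, or in double-knockdown cells, where 1.28% were higher and 1.23% lower. Without the library divisor the median log2 difference of all genes tested was −0.13 in Ptbp1-knockdown cells and 0.43 in double-knockdown cells, beside 0.04 and 0.07 with it. Calls then split into 91 higher and 119 lower in Ptbp1-knockdown cells (137 and 78 with it) and 514 higher and 45 lower in double-knockdown cells (113 and 108 with it). In double-knockdown cells Tpm4, Actn4 and Tpm1 stood at 0.01, 0.15 and 0.27 on that scale, each under that median. By exon reads, Tpm3 passed the difference of 1 in Ptbp1- and double-knockdown cells, where 0.386% and 1.49% of genes with at least 1 CPM were lower by as much.

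**Figure D4:**
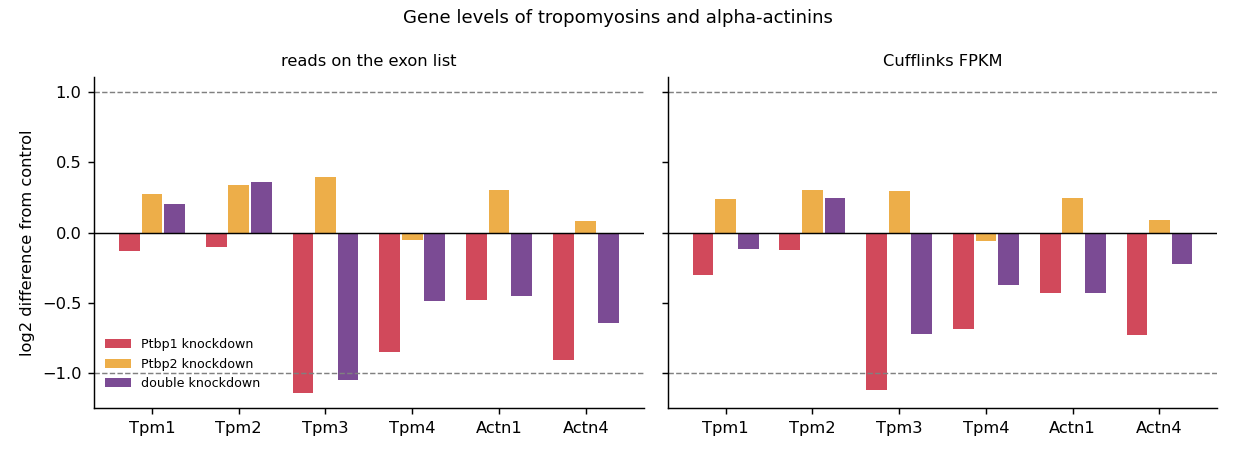
Log2 difference from control (y axis) of the 6 genes (x axis) by reads on the exon list and by Cufflinks FPKM, with dashed lines at −1 and 1. Tpm3 in Ptbp1-knockdown cells lies below −1 in both panels, at −1.14 and −1.11, and in double-knockdown cells only by exon reads, at −1.05 against −0.72.

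Other genes of the actin filament were described from a list of 50 actins, myosins, caps, crosslinkers and other filament binders. Of those tested by FPKM, 0 were called higher and 7 lower of 36 in Ptbp1-knockdown cells, 0 and 3 of 34 in Ptbp2-knockdown cells, and 0 and 5 of 35 in double-knockdown cells. Over all genes, 0.875%, 1.81% and 1.23% were called lower in Ptbp1-, Ptbp2- and double-knockdown cells. By exon reads, 1 partner was higher and 6 lower by 1 or more of 42 in Ptbp1-knockdown cells, 1 and 0 of 41 in Ptbp2-knockdown cells, and 0 and 5 of 42 in double-knockdown cells, so the lower calls in Ptbp2-knockdown cells rest on FPKM alone. Over all genes with at least 1 CPM, 3.44% were higher and 0.386% lower in Ptbp1-knockdown cells, 0.738% and 2.04% in Ptbp2-knockdown cells, and 1.49% and 1.49% in double-knockdown cells. The median log2 difference of the list was −0.24 in Ptbp1-knockdown cells, −0.02 in Ptbp2-knockdown cells and −0.15 in double-knockdown cells, beside 0.04, 0.02 and 0.07 over all genes tested. By exon reads, 32 of 42 partners were below control in Ptbp1-knockdown cells, 24 of 41 in Ptbp2-knockdown cells and 32 of 42 in double-knockdown cells, where 55.4%, 49.6% and 51.9% of all genes tested were.

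Flna, which encodes the filament crosslinker filamin A, stood at 38.1 FPKM in Ptbp1-knockdown cells and 32.6 FPKM in double-knockdown cells, against 121 FPKM in control cells, and by exon reads it differed by −1.74 and −2.00 on the log2 scale. Actg1, the cytoplasmic gamma actin, stood at 332 FPKM in Ptbp1-knockdown cells and 1161 FPKM in control cells, with −1.12 by exon reads. Cald1, which encodes the tropomyosin-binding protein caldesmon, stood at 17.6 FPKM in Ptbp1-knockdown cells, 24.2 FPKM in Ptbp2-knockdown cells and 13.1 FPKM in double-knockdown cells, against 54.1 FPKM in control cells. By exon reads the difference of Cald1 was −1.13 in Ptbp1-knockdown cells, −0.15 in Ptbp2-knockdown cells and −1.25 in double-knockdown cells. Among partners with at least 5 FPKM in 1 of the libraries compared, Myl6, a myosin light chain, had the largest FPKM differences, at 14.9, 117 and 18.2 FPKM in Ptbp1-, Ptbp2- and double-knockdown cells and 258 FPKM in control cells, but exon reads put it at −0.55, 0.05 and −0.35 on the log2 scale. Cttn, which encodes cortactin, stood at 38.5 FPKM in Ptbp2-knockdown cells and 73.9 FPKM in control cells, which was not called, and exon reads gave −0.11. Vil1, which encodes villin and lies under that minimum, was named after its values were seen: it was called lower in Ptbp2-knockdown cells, listed at 0 there and at 3.18 FPKM in control cells, with −0.96 by exon reads.

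The partners above that minimum with the largest positive FPKM differences were not called. Pdlim3, a binder of alpha-actinin, stood at 19.9 FPKM in Ptbp1-knockdown cells and 17.6 FPKM in double-knockdown cells, against 10.3 FPKM in control cells. Actn2, the alpha-actinin of striated muscle, stood at 6.05 FPKM in Ptbp2-knockdown cells and 6.23 FPKM in double-knockdown cells, against 3.06 FPKM in control cells. Tagln3 and Tmod1 in Ptbp1-knockdown cells, Myl9 and Cnn2 in Ptbp2-knockdown cells and Cfl2 in double-knockdown cells lay between 0.50 and 0.96 on the log2(FPKM + 1) scale. For Cfl2, exon reads gave −0.09.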

How the data were processed

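The 4 libraries, 1 a group, were compared as each knockdown against control, with no test. Per the submitters' processing notes, CASAVA, TopHat and Cufflinks were used with build mm9; their versions are not given in the sources used here. The authors deposited FPKM of genes and transcripts with intervals, assembled separately in each library. The deposited FPKM were not on the usual scale assumed when the comparison was designed, so they were divided by each library's sum of FPKM times length. Per the file headers the transcript tables also hold coverage, a signal of mean depth, and the deposited transcript structures hold a score, neither of which was used. SpliceTrap tables deposited by the authors give counts of junction reads, exon coverage (a signal of reads over exon size) and an inclusion ratio, a fraction, for each trio.

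Trios were named by splice sites of named RefSeq transcripts (94.8% of 218362 cassette trios). RefSeq identifiers were matched to symbols for 27030 of 27657. Junctions give 95% Wilson intervals, and Newcombe intervals for differences, from rounded reads. CPM were exon reads scaled by median of ratios, compared with 0.1 added. The members and lists were chosen with earlier results of these data known, and splice partners and last exons were added after seeing the data. Some listed markers of neuroblastoma and neurons are not reported here. Named partners are the 3 with the largest FPKM difference in each direction among those with at least 5 FPKM in 1 of the libraries compared. Exon sequences come from GENCODE vM21 transcripts, matched by exon length and spacing. No p-values were computed. Calls were tested on simulated data. Tools were Python 3.11.15, pandas 2.3.3, numpy 2.4.6 and Biopython 1.88.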

Additional observations from a re-analysis of the deposited data

How the results depend on the processing

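No paired analysis was possible because each group held 1 library, and no library could be left out for the same reason. Of the alternatives run on single genes and exons, 184 were labelled the same, 16 moved and 1 reversed. For exons, the same meant within the counting interval or on the same side. For genes it meant the same sign and side of the threshold, or a small shift even where the sign changed. Only a difference past the threshold could be labelled reversed. The reversal was the Tpm3 6a share in double-knockdown cells, +71.4 percentage points against control by Cufflinks FPKM and −23.9 by junctions; the Tpm3 assemblies also gave +23.2 in Ptbp1-knockdown cells, where junctions gave −13.1, and the cause was not tested. Actn1 moved from −19.1 points in double-knockdown cells to −39.1 by downstream junctions alone and −1.65 by upstream junctions alone. By exon reads Tpm1 in double-knockdown cells was at 0.21 on the log2 scale against −0.11 by FPKM, and members called there numbered 1 (Tpm3), against 0. Without the library divisor, 559 genes were called in double-knockdown cells, against 221, and Tpm1 was at 0.27, Actn4 at 0.15 and Tpm4 at 0.01. Genes called in Ptbp1-knockdown cells numbered 130 at 10 FPKM or more, 93 with a pseudocount of 5 and 396 by exon reads, against 215. In Ptbp2-knockdown cells they numbered 155 at 10 FPKM or more and 91 with a pseudocount of 5, against 235, and in double-knockdown cells 108 with that pseudocount. At 10 percentage points, pairs called over all genes numbered 65, 32 and 60 in Ptbp1-, Ptbp2- and double-knockdown cells, against 21, 8 and 33, and member pairs in Ptbp1-knockdown cells 2, against 1. Pairs called in Ptbp2-knockdown cells numbered 13 at a minimum of 10 reads and 3 at 50. Cassette events called at 10 points numbered 1308, 1063 and 1766 in Ptbp1-, Ptbp2- and double-knockdown cells, against 397, 197 and 632, and in Ptbp2-knockdown cells 123 at 50 reads and 318 by the SpliceTrap ratio. Member cassette events called numbered 0 at 50 reads in Ptbp1- and double-knockdown cells, against 1 in each. At 10 points they numbered 1 in Ptbp2-knockdown cells and 3 in double-knockdown cells, and by the SpliceTrap ratio 0 in Ptbp1-knockdown cells and 2 in double-knockdown cells. Shares of splice partners by Cufflinks FPKM, an alternative chosen after seeing the data, moved in 24 of 45 values with none reversed: the Tpm2 near site differed by 13.5 points in Ptbp1-knockdown cells and 24.6 in double-knockdown cells, against 36 and 60.2 by junctions. Tpm2 rests on few reads, and Tpm3 on an assembly and counts that may share reads with its copies.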

Other observations

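By gene level, the genes most like each member were sought over the 3 log2 exon-read differences from control among 7987 genes with at least 1000 exon reads in every library. All 3 differences share the control library. For Tpm3 they were Lima1, with −0.97, 0.46 and −1.17 in Ptbp1-, Ptbp2- and double-knockdown cells, Plaur with −0.79, 0.29 and −0.93, and Fmnl3 with −0.76, 0.37 and −1.09. The root mean square distance from Tpm3 was 0.13 for Lima1, 0.22 for Plaur and 0.22 for Fmnl3, where the nearest genes of the other members lay within 0.07. For Tpm4 they were Nras, Cdc25c and Pygb, and for Actn4 Wasf2, Bop1 and Minpp1. For Actn1 they were Mks1, Rbms2 and Manf, for Tpm1 Ecsit, Limk1 and 2810004N23Rik, and for Tpm2 Sdad1, Zfp410 and Cdk12.

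Cassette exons of other genes with a pattern like the called pairs were sought over the 4 libraries. The share of Tpm1 exon 6b, at 91.3%, 27.9% and 92.5% in Ptbp1-, Ptbp2- and double-knockdown cells and 64.7% in control cells, was closest to a 157-nt exon of Scamp5, at 90.3%, 22.3% and 83.8% in the knockdowns and 57.8% in control cells. A 93-nt exon of Exoc7 followed, at 83.5%, 29.4% and 90.1% in Ptbp1-, Ptbp2- and double-knockdown cells and 55.1% in control cells, and then a 39-nt exon of the same gene. Exon 6a of Tpm1 had no close match, with Bod1l, App and Hnrnph2 at 18.4 to 19.1 percentage points. For Tpm3 exon 6b the closest were exons of Ralgps2, Ewsr1 and Tanc2, and for exon 6a those of Cntrob, Atr and Pitpnc1, at 2.5 to 4.0 points.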
